A study of Mus musculus with 6 samples.

Results

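The 41 genes described here belong to the nuclear receptor family. They were taken by symbol from the 50600 genes of the count table: names of the form Nr, digit, letter, digit, together with the retinoic acid (Rar), retinoid X (Rxr), peroxisome proliferator-activated (Ppar), thyroid hormone (Thr), vitamin D (Vdr), oestrogen (Esr), oestrogen-related (Esrr) and ROR (Ror) receptor genes. The rule leaves out Nr1h3 and the genes Nr4a1, Nr4a2 and Nr4a3, and receptors whose symbols have another form, such as the androgen receptor, fall outside it. No measured value entered the rule. RNA came from macrophages sorted by flow cytometry as living cells bearing CD45, F4/80 and CD64, from the pancreatic islets and from the epididymal fat, a visceral depot, of male C57BL/6J mice. All animals were 12 weeks old and ate chow, and the labels name no engineered allele and give the treatment as none. Each tissue gave 3 libraries, numbered 2, 4 and 6, and the design text calls the tissues autologous, so libraries with 1 number were taken to come from 1 animal. Nothing in the labels says whether an islet library pooled animals.

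Nuclear receptors are transcription factors, many of which are switched by small fat-soluble ligands such as steroid and thyroid hormones, vitamin A and D derivatives, fatty acids and oxysterols. A typical member binds DNA through zinc fingers and its ligand through a separate pocket, and the bound ligand exchanges corepressor for coactivator proteins. Many members act as heterodimers with a retinoid X receptor. In macrophages the family is known for control of lipid handling, of inflammatory genes and of tissue-specific identity.

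Total counts were 4089980 to 6923475 in the islet and 7450890 to 9235591 in the fat libraries. Levels are given as CPM, counts brought to a common library size after TMM scaling, which assumes that most genes do not differ between libraries. The 7 macrophage markers were detected in every library, at a summed 5253 to 7830 CPM in islet and 7528 to 9478 CPM in fat, and 1 of them (Lyz2) fell. RNA of other cells differed between the tissues. All 11 islet endocrine markers rose, summing to 9428, 6136 and 3435 CPM over islet libraries 2, 4 and 6 and to at most 5.97 CPM in fat. Stromal marker lists summed lower in islet and differed among the fat libraries, with library 6 the lowest. Endothelial markers summed to 159, 65.7 and 27.4 CPM across fat libraries 2, 4 and 6 and to 7.45 to 23.3 CPM in islet (2 of 5 tested fell), and smooth muscle and pericyte markers to 186, 54.7 and 28.0 CPM against 6.65 to 15.4 CPM (3 of 5 fell). Fibroblast markers summed to 649, 662 and 279 CPM against 141 to 252 CPM in islet, nearly all of the latter Gsn, and 6 of 7 tested fell. Markers without counts in 1 tissue could enter the test only as higher in the other. Among these were 7 of the 11 endocrine markers and Col1a1, Dcn, Dpt, Pdgfra, Cldn5 and Tagln. Adipocyte markers summed to 82.9 to 146 CPM in fat and 118 to 190 CPM in islet, most of the latter Acsl1, while 8 of the 10, Adipoq and Plin1 among them, had no count in any islet library. Dendritic cell markers summed to 78.9 to 96.5 CPM in fat and 12.3 to 20.4 CPM in islet (2 of 5 fell). Most of that fat sum was Cd209a and Zbtb46, the 2 that fell. Ccr7, Clec9a and Flt3 had higher mean levels in islet and did not pass (log2 2.32, 1.48 and 0.78). B cell markers summed to 38.0 to 222 CPM in islet and 167 to 242 CPM in fat. B cell markers did not pass (0 of 2 tested), nor did those of T and NK cells (0 of 1), and no mesothelial marker was tested. For exocrine pancreas 1 of 2 tested rose (Ctrb1), and for neutrophils, mast cells and eosinophils 1 of 1 (Csf3r). In that last list S100a8, S100a9, Cpa3 and Mcpt4 had low counts in fat and none in islet. Siglecf had low counts in both tissues, and Ly6g and Prg2 had none. These last 4 lists summed to at most 87.1 CPM in any library. Heat shock RNA (Hspa1a, Hspa1b, Hsph1, Dnajb1, Hspa8, Hsp90aa1 and Hspb1) took 9.30%, 10.3% and 0.779% of counts in islet libraries 2, 4 and 6 and 0.251% to 0.281% in fat.

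Of the 41 genes, 21 had enough counts to be tested, 12 had counts but did not pass the filter and 8 had none in any library. Of the 21 tested, 6 fell in islet macrophages and 1 rose (quasi-likelihood test of edgeR with a threshold of 0.05 on Benjamini-Hochberg adjusted p over 12152 genes). Those that fell were the thyroid hormone receptor genes Thra and Thrb, the retinoid receptor genes Rarg and Rxra, and the clock receptor genes Nr1d1 and Nr1d2. The gene that rose was Pparg, the fatty acid sensor PPAR gamma. Over all genes tested 10.5% fell and 8.97% rose, against 28.6% and 4.76% of the tested receptor genes. Islet and fat libraries did not overlap for 11 receptor genes that were lower in islet and 2 that were higher, or 52.4% and 9.52%, where all tested genes gave 22.3% and 18.2%. The median difference, islet minus fat, was -0.64 (log2) over the 21 and 0.01 over all genes tested. The percentages and the median cover only genes that passed the filter on low counts, and Thrb and Nr3c2 passed it through their fat libraries alone. Leaving out fat replicate 2 left 3 that fell, and leaving out islet replicate 6 gave 10. The latter count takes in receptor genes outside the 21, because the genes that pass the filter change with the libraries. No receptor gene rose (0) once islet replicate 2 or any 1 fat replicate was left out, and 2 did once islet replicate 4 or 6 was. In bulk RNA such as this, fewer cells of a type and less RNA per cell cannot be told apart.

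**Figure D1:**
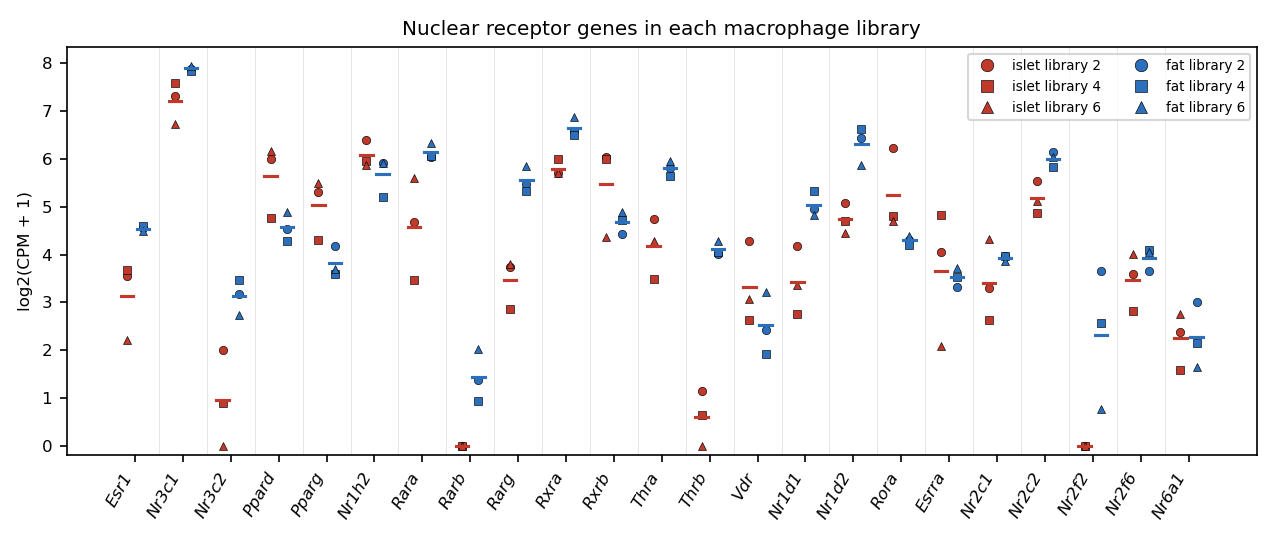
Level of each tested nuclear receptor gene, and of Rarb and Nr2f2, in every library, as log2(CPM + 1) with islet in red and fat in blue; symbols mark the library number and bars the mean of 3 libraries. Thrb, Rarg and Nr1d2 are lower in all 3 islet libraries than in any fat library, and Pparg is higher.

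**Figure D2:**
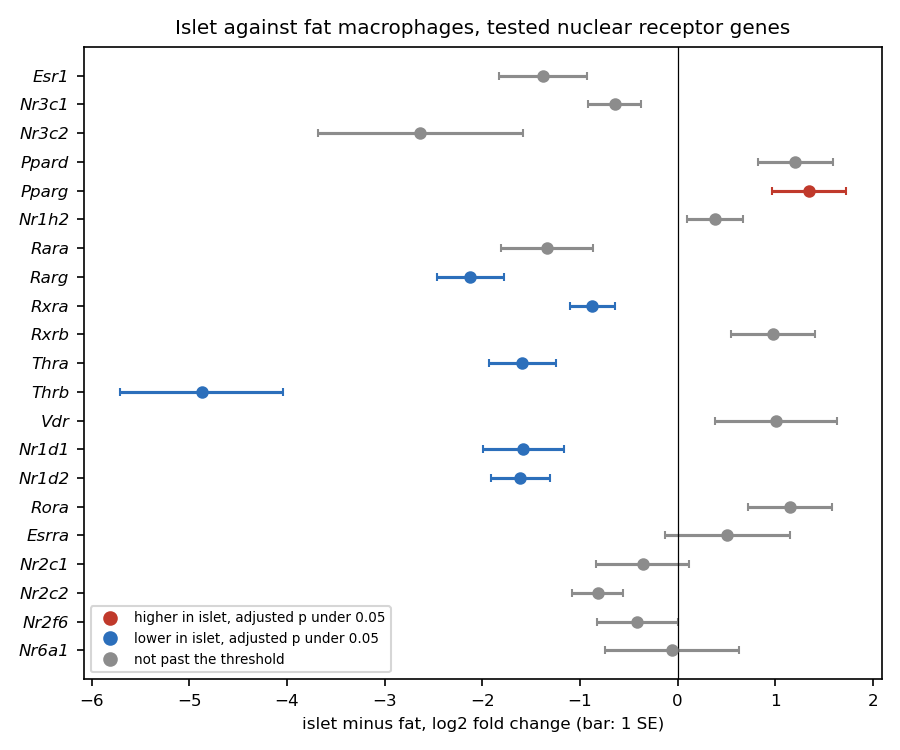
Fitted difference, islet minus fat, of the 21 tested genes on a log2 scale, with bars of 1 standard error and colours for the adjusted p threshold of 0.05. The 6 blue points lie left of 0 and the 1 red point, Pparg, lies to the right.

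The make-up of the family differed in order between the tissues when levels were expressed per kilobase of exons, the scale on which genes can be compared. In islet macrophages Nr1h2 (20.1 CPM per kb, 17.2 to 24.9 over the libraries) and Nr3c1 (19.8, 13.7 to 24.9) led, followed by Rxrb (12.4, 4.98 to 16.2), Pparg (11.5, 6.41 to 15), Rxra (10.1, 9.34 to 11.5), Ppard (7.10, 3.47 to 9.43), Rara (6.28, 2.30 to 10.9) and Nr1d2 (4.86, 3.84 to 6.07). Each neighbouring pair in that order had overlapping ranges. In fat macrophages Nr3c1 stood alone at 30.9 CPM per kb (29.9 to 32.0). Below it came Rxra (18.4, 16.5 to 21.3), Rara (16.1, 14.8 to 18.2), Nr1h2 (15.4, 10.6 to 17.8), Nr1d2 (14.8, 10.6 to 18.0), Thra (12.0, 10.7 to 13.3), Rarg (10.9, 9.25 to 13.4) and Nr1d1 (10.5, 8.91 to 12.8), and each neighbouring pair among these 7 overlapped. Rxra exceeded Rxrb, the other widely expressed retinoid X receptor gene, in all fat libraries per kb (Rxrb 5.16 to 7.25), while in islet libraries their ranges overlapped. Pparg ranked 4 in islet and 11 in fat.

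**Figure D3:**
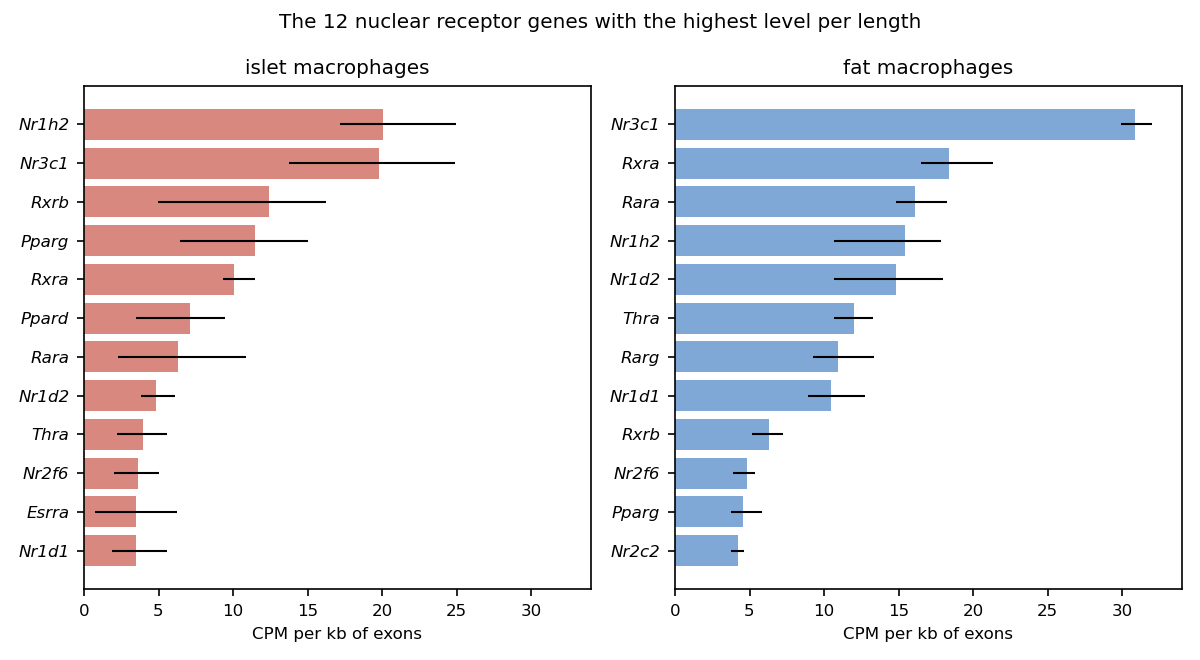
Mean level per kilobase of merged exons of the 12 highest receptor genes in islet (left) and fat (right) macrophages, in CPM per kb, with lines from the lowest to the highest of 3 libraries. Nr3c1 leads in fat at 30.9 CPM per kb, and Nr1h2 and Nr3c1 lie at 20.1 and 19.8 CPM per kb in islet.

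The thyroid hormone receptor genes, whose proteins bind triiodothyronine and pair with retinoid X receptors, fell in islet macrophages. Thrb (ENSMUSG00000021779.16, GRCm38 chromosome 14, 17660261 to 18038090), the beta receptor, had islet levels of 1.21, 0.573 and 0 CPM (6, 2 and 0 counts in libraries 2, 4 and 6) and fat levels of 15.1, 15.7 and 18.6 CPM. It was near 0 in islet and even across fat, and was 29.3-fold lower (a log2 difference of -4.87 ± 0.83, SE, edgeR adjusted p = 0.00448). Thra (ENSMUSG00000058756.13, chromosome 11, 98740638 to 98769006), the alpha receptor, stood at 25.8, 10.3 and 18.6 CPM in islet and 55.2, 49.2 and 61.4 CPM in fat. The groups did not overlap, and Thra was 3.01-fold lower (log2 -1.59 ± 0.34, edgeR adjusted p = 0.0131). Thrb passed under all 15 alternatives (adjusted p up to 0.0290), and Thra no longer passed once fat replicate 2 or 6 was left out (edgeR adjusted p = 0.0579 and 0.0610). Thrb was highest in fat library 6, where the stromal markers were lowest, and the part of other cells in its difference was not tested. Vdr, the vitamin D receptor gene, stood at 18.5, 5.16 and 7.41 CPM in islet and 4.35, 2.79 and 8.35 CPM in fat. Its groups overlapped (log2 1.01 ± 0.63, edgeR adjusted p = 0.311).

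Of 11 genes for the handling of thyroid hormone and vitamin D or known to respond to them, 5 were tested and 3 of these fell, while 0 rose in edgeR (0 at an unadjusted p under 0.05, and 0 in DESeq2 and in limma voom). The 5 had a median difference of -4.31 (log2). Hr and Thrsp, 2 of the 3 that fell, had no islet counts and passed the filter through their fat libraries alone. They could thus enter the test only as genes lower in islet, which limits what the count and the median show. Klf9, a Krüppel-like factor that thyroid hormone and glucocorticoids both induce, stood at 9.88, 16.9 and 9.16 CPM in islet and 231, 209 and 264 CPM in fat (log2 -4.31 ± 0.32, edgeR adjusted p = 0.000106). Hr, a corepressor of the thyroid hormone receptor, had no islet counts and 12.6, 13 and 49.5 CPM across fat libraries 2, 4 and 6, at least 40.2-fold lower when each islet library is set to the floor of 3 counts (edgeR adjusted p = 0.00288). Thrsp, a lipogenic gene that adipocytes also express, had no islet counts and 8.60, 17.4 and 3.06 CPM in fat, at least 15.5-fold lower (edgeR adjusted p = 0.00697). Across the fat libraries Thrsp was highest in 4 and lowest in 6, as was Adipoq (6.62, 7.43 and 2.12 CPM). The part of adipocyte RNA in that difference was not tested. Hr missed the threshold without both islet libraries 2 and 4 (edgeR adjusted p = 0.110), and 1 gene rose once islet replicate 6, or islet libraries 2 and 4 together, were left out. The deiodinase genes Dio1, Dio2 and Dio3, which activate or break down thyroid hormone, were at most 2.58 CPM in every library and were not tested.

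Thra, Nr1d1, Thrb and Nr1d2 lie near retinoic acid receptor genes in 2 stretches of the genome, which were chosen for description after the values were seen. On chromosome 11, Thra, Nr1d1 and Rara lie within 234 kb (98740638 to 98974942), and on chromosome 14 Rarb, Thrb and Nr1d2 lie within 1808 kb (16430839 to 18239127). All 6 genes were lower in every islet library than in any fat library, though Rara missed the threshold and Rarb was too low to be tested. The same held for 22.3% of all genes tested and for 52.4% of the tested receptor genes. The other tested genes of these stretches did not pass: 5 on chromosome 11 (Msl1, Gm12359, Casc3, Wipf2 and Cdc6, median log2 difference 0.09) and Top2b on chromosome 14 (-0.17). Thra and Nr1d1 share 263 bases of exon on opposite strands, 5.7% and 8.55% of their exonic lengths, and the sources used here do not give the strand setting of the counting.

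Retinoid receptors bind vitamin A derivatives: the Rar genes encode receptors of retinoic acid and the Rxr genes their shared partners. Rarg (ENSMUSG00000001288.14, chromosome 15, 102234938 to 102257517), the gamma receptor, stood at 12.3, 6.31 and 13.1 CPM across islet libraries 2, 4 and 6 and 43.3, 39.4 and 56.9 CPM across fat libraries 2, 4 and 6. All islet libraries lay far below all fat libraries, and Rarg was 4.35-fold lower (a log2 difference of -2.12 ± 0.34, SE, edgeR adjusted p = 0.00352). Rxra (ENSMUSG00000015846.14, chromosome 2, 27676440 to 27762957) stood at 51.0, 62.8 and 51.2 CPM in islet and 95.2, 90.0 and 116 CPM in fat, 1.83-fold lower (log2 -0.87 ± 0.23, edgeR adjusted p = 0.0287) with no overlap. Rarg passed under all 15 alternatives (adjusted p up to 0.0253). Rxra missed the threshold with the replicate number as a block (edgeR adjusted p = 0.0622), without fat replicate 2, 4 or 6 (0.0992, 0.0702 and 0.128) and without islet replicate 2 (0.0780).

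Rara, the alpha receptor, did not pass, although its groups did not overlap: 24.6, 10.0 and 47.6 CPM in islet and 64.8, 66.3 and 79.6 CPM in fat (log2 -1.34 ± 0.47, edgeR adjusted p = 0.0815). Its islet libraries spread widely, with library 6 highest. It passed with the replicate number as a block (edgeR adjusted p = 0.0271), without islet replicate 6 (0.00331), with no filter (0.000561) and in DESeq2 and limma voom (0.0277 and 0.0431). Rarb, the beta receptor and itself a known retinoic acid target, had 17, 7 and 26 counts in fat libraries 2, 4 and 6 and none in islet, at least 2.99-fold lower. It failed the filter, and 38.4% of its exonic length lies opposite to other genes, mostly Top2b. Rxrb stood at 64.5, 63.4 and 19.8 CPM in islet and 20.5, 25.6 and 28.8 CPM in fat, so islet libraries 2 and 4 were high and islet library 6 lay below all fat libraries (log2 0.97 ± 0.43, edgeR adjusted p = 0.156). It passed without islet replicate 6 (edgeR adjusted p = 0.00295), and without both islet libraries 2 and 4 its difference was -0.41. Heat shock RNA was also high in islet libraries 2 and 4 and low in islet library 6, and its part in the result was not tested. Rxrg had 2 counts in each of fat libraries 2 and 6 and none elsewhere.

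Of 16 genes of retinoid handling and response, 7 were tested, 2 fell and 0 rose in edgeR (1 at an unadjusted p under 0.05, and 1 in DESeq2 and 0 in limma voom). The median difference was -1.55 (log2). Of the 2 that fell, Aldh1a1 passed the filter through its fat libraries alone. Dhrs3, a retinaldehyde reductase that retinoic acid induces, stood at 66.7, 99.5 and 119 CPM in islet and 245, 277 and 311 CPM in fat (log2 -1.55 ± 0.28, edgeR adjusted p = 0.0057). Aldh1a1, which makes retinoic acid, had no islet counts and 7.19, 9.55 and 2.94 CPM in fat, at least 10.5-fold lower (edgeR adjusted p = 0.00712). Among the fat libraries it was highest in 4 and lowest in 6, as were Adipoq and the fibroblast markers Dcn, Dpt, Lum, Pdgfra and Gsn. The collagen genes Col1a1, Col1a2 and Col3a1 were highest in 2 and lowest in 6, and Pi16 was highest in 4 and lowest in 2. The part of adipocyte and fibroblast RNA in the Aldh1a1 difference was not tested. With both islet libraries 2 and 4 left out 4 fell, and 1 rose there or without islet replicate 4.

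The promoters of 5 receptor genes that passed the threshold are shown because each holds a hexamer of the kind that nuclear receptors bind singly or in pairs. The windows are the 250 bases before a RefSeq start (GRCm38.p6), 5′ to 3′ on the gene's strand, with the letters AGGTCA or their reverse complement TGACCT in capitals. They are Nr1d2 at chr14:18239107-18239356, minus strand, Thrb (the first of 2 starts) at chr14:17660710-17660959, plus strand, Rarg (the first of 2) at chr15:102257523-102257772, minus strand, Rxra (the second of 2) at chr2:27709042-27709291, plus strand, and Pparg (the second of 3) at chr6:115362099-115362348, plus strand.
Nr1d2: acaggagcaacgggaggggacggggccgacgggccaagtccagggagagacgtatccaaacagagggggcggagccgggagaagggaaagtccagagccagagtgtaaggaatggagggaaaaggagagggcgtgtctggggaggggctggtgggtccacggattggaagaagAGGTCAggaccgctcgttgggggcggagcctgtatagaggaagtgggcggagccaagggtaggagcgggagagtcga
Thrb: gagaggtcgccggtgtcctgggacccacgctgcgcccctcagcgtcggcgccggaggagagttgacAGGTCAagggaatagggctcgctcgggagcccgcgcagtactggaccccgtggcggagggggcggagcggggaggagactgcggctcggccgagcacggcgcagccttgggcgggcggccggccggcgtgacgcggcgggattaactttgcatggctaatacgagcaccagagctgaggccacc
Rarg: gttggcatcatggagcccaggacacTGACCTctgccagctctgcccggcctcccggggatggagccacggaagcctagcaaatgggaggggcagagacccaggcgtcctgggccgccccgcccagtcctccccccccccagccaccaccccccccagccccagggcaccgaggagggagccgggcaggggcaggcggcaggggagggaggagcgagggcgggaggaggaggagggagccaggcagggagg
Rxra: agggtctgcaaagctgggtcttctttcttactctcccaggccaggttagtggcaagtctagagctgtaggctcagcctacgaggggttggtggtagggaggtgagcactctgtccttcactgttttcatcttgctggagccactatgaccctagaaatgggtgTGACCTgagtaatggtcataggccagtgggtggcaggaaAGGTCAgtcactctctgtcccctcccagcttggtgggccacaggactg
Pparg: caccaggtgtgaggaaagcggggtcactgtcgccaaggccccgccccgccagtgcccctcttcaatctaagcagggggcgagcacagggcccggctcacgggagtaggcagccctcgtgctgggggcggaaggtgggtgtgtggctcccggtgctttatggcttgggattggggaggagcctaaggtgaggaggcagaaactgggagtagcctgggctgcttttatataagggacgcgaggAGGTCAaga
The capitals begin at -77 in Nr1d2, -184 in Thrb, -225 in Rarg and -9 in Pparg, counted back from the start, and Rxra holds 2 such hexamers. The first Pparg window, not printed, also holds 1, while the other windows of Thrb, Rarg, Rxra and Pparg and the window of Nr1d1 hold none. Windows were held for 6 of the 7 genes that passed. Over their 11 windows of 300 bases, which include 50 bases after the start, 6 held AGGTCA on either strand, against 16.3% of 32851 RefSeq windows. The E-box CACGTG, which reads the same on both strands, was in 1 of the 11 (7.15% of all windows), and AGAACA, the hexamer of steroid receptors, in 1 on either strand (19% of all). Windows of 1 gene can overlap, and a match describes letters, not binding.

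The clock receptors act on shared sites: the REV-ERB proteins, encoded by Nr1d1 and Nr1d2, repress and the ROR proteins activate, among others, the clock gene Arntl (BMAL1). Nr1d2 (ENSMUSG00000021775.10, chromosome 14, 18204054 to 18239127), whose promoter is printed above, stood at 32.9, 25.2 and 20.7 CPM across islet libraries 2, 4 and 6 and 85.6, 97.3 and 57.5 CPM across fat libraries 2, 4 and 6. The groups did not overlap, and it was 3.05-fold lower (a log2 difference of -1.61 ± 0.30, SE, edgeR adjusted p = 0.00647). Nr1d1 (ENSMUSG00000020889.11, chromosome 11, 98767932 to 98775333) stood at 17.1, 5.73 and 9.30 CPM in islet and 30.1, 39.3 and 27.4 CPM in fat, 2.99-fold lower without overlap (log2 -1.58 ± 0.42, edgeR adjusted p = 0.0291). Nr1d2 passed under all 15 alternatives (adjusted p up to 0.0377), and Nr1d1 no longer passed with fat replicate 2, 4 or 6 left out (edgeR adjusted p = 0.0932, 0.105 and 0.0748). Rora, the ROR alpha gene, was higher in every islet library, at 74.0, 26.9 and 25.1 CPM against 18.9, 17.5 and 20.1 CPM, with library 2 far above the other two. It did not pass (log2 1.16 ± 0.43, edgeR adjusted p = 0.0975), and passed without islet replicate 6 (0.0213) and with no filter (0.0206).

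Other clock genes moved both ways. Of 15, 13 were tested, 5 fell and 1 rose, with a median difference of -0.94 (log2). Arntl, the positive arm of the clock, stood at 11.3, 7.17 and 14.3 CPM in islet and 57.6, 58.5 and 61.9 CPM in fat (log2 -2.42 ± 0.31, SE, edgeR adjusted p = 0.00107). Its partner Clock, at 64.7, 40.4 and 47.4 CPM in islet and 112 to 123 CPM in fat, fell by 1.22 ± 0.25 (edgeR adjusted p = 0.0096) and the period gene Per1 by 2.45 ± 0.58 (0.0189). Per2, which passed the filter through its fat libraries alone, and Ciart also fell. Bhlhe41, a repressor of the same clock (DEC2), stood at 133, 82.9 and 66.3 CPM in islet and 4.35, 3.72 and 3.53 CPM in fat, a rise of 4.59 ± 0.35 (edgeR adjusted p = 0.000116). The negative-arm genes Cry1 and Cry2 and the output gene Dbp did not pass (edgeR adjusted p = 0.595, 0.424 and 0.787). Leaving out fat replicate 2, 4 or 6 left 1, 2 and 2 that fell, and the replicate number as a block gave 2 that rose. Clock no longer passed with fat replicate 2 left out (edgeR adjusted p = 0.0542), and Per1 without fat replicate 2, 4 or 6 (0.0696, 0.0552 and 0.0587). The sources used here do not give the hours of tissue collection.

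**Figure D4:**
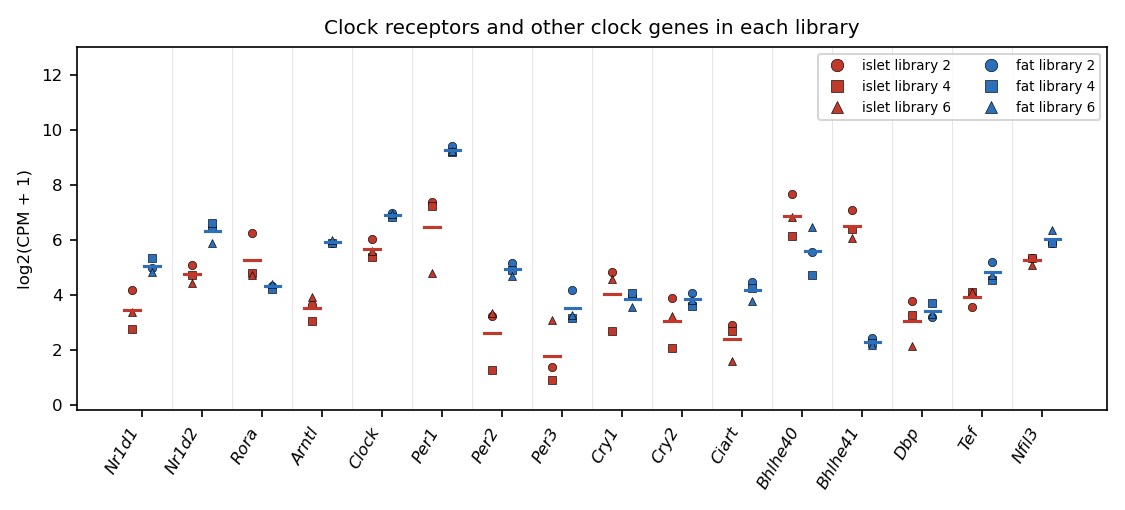
Levels of the REV-ERB genes, Rora and 13 other clock genes in each library, as log2(CPM + 1), islet in red and fat in blue, bars at the mean of 3 libraries. Nr1d1, Nr1d2, Arntl and Per1 are lower in all islet libraries than in fat, and Bhlhe41 is higher.

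The PPAR genes encode fatty acid sensors, and both that were detected had higher mean levels in islet. Pparg (ENSMUSG00000000440.12, chromosome 6, 115360951 to 115490399), known as a regulator of fat cells and of tissue macrophages such as those of the lung, stood at 38.5, 18.9 and 44.3 CPM across islet libraries 2, 4 and 6 and 17.2, 11.0 and 12.0 CPM across fat libraries 2, 4 and 6. The lowest islet library lay just above the highest fat library, and Pparg was 2.53-fold higher (a log2 difference of 1.34 ± 0.38, SE, edgeR adjusted p = 0.0378). It no longer passed with fat replicate 2, 4 or 6 left out (edgeR adjusted p = 0.0840, 0.173 and 0.141) and without islet replicate 2 or 6 (0.102 and 0.0546). Of the 10 adipocyte markers 8 had no islet counts, Acsl1 rose in islet (162, 95.8 and 154 CPM against 34.6 to 39.0 CPM, edgeR adjusted p = 0.00175) and Lipe stood at 10.8 to 27.6 CPM in islet and 23.6 to 36.2 CPM in fat. The part of other cells in the Pparg difference was not tested. Ppard, the delta receptor, stood at 63.1, 26.1 and 70.9 CPM in islet and 22.2, 18.6 and 28.8 CPM in fat, so that islet library 4 lay within the fat range (log2 1.21 ± 0.39, edgeR adjusted p = 0.0608). It passed with the replicate number as a block (edgeR adjusted p = 0.0467), with islet replicate 4 (0.00685) or islet libraries 2 and 4 together (0.000295) left out, with no filter (0.0088) and in DESeq2 (0.0337). Ppara had no count in any library.

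Of 18 genes known to respond to these receptors, 17 were tested, 7 fell and 0 rose in edgeR (1 at an unadjusted p under 0.05, 0 in DESeq2 and 0 in limma voom), with a median of -0.65 (log2). Cidec, Pdk4 and Fabp4 were among those that passed the filter through their fat libraries alone. Pdk4, a kinase that spares glucose, stood at 0.403, 0 and 0 CPM in islet, which is 2 counts in all, and 52.5, 41.4 and 49.1 CPM in fat (edgeR adjusted p = 0.000136). Fabp4, a fatty acid binding protein of macrophages and adipocytes, stood at 0.403, 0 and 0.404 CPM in islet and 192, 140 and 32.8 CPM in fat (log2 -8.54 ± 0.89, edgeR adjusted p = 0.000423). Among the fat libraries it was highest in 2 and lowest in 6. The endothelial markers other than Emcn, the pericyte gene Rgs5 and the collagen genes Col1a1, Col1a2 and Col3a1 had that order too. The part of other cells in the Fabp4 difference was not tested. Angptl4, an inhibitor of lipoprotein lipase, stood at 1.61, 2.01 and 4.85 CPM in islet and 49.7, 54.1 and 46.3 CPM in fat (log2 -4.08 ± 0.43, edgeR adjusted p = 0.000466). Cd36, Cpt1a and Lpl, which take up, burn and release fatty acids, and Cidec, a lipid droplet gene that is also an adipocyte marker, fell too. Without islet replicate 6 the number that rose was 3. Fabp4 missed the threshold without both islet libraries 2 and 4 (edgeR adjusted p = 0.140).

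Steroid receptors bind adrenal and sex hormones and, unlike most of the family, work mainly as homodimers. Nr3c1, the glucocorticoid receptor gene and the highest of the 41 in fat, stood at 159, 191 and 105 CPM across islet libraries 2, 4 and 6 and 236, 230 and 246 CPM across fat libraries 2, 4 and 6. The groups did not overlap, but Nr3c1 did not pass (log2 -0.64 ± 0.27, SE, edgeR adjusted p = 0.137), and passed without both islet libraries 2 and 4 (log2 -1.25, edgeR adjusted p = 0.000954). Nr3c2, the mineralocorticoid receptor gene, stood at 3.02, 0.860 and 0 CPM in islet and 8.04, 10.1 and 5.65 CPM in fat (log2 -2.63 ± 1.05, edgeR adjusted p = 0.120). It passed in DESeq2 and limma voom (adjusted p = 0.0385 and 0.0395), with no filter (edgeR adjusted p = 0.0083), without islet replicate 2 (0.0464) and without both islet libraries 2 and 4 (7.44e-05). Esr1, the alpha oestrogen receptor gene, stood at 10.7, 11.8 and 3.64 CPM in islet and 22.4, 23.1 and 21.4 CPM in fat (log2 -1.38 ± 0.45, edgeR adjusted p = 0.0649). It passed in DESeq2 and limma voom (adjusted p = 0.0202 and 0.0232), with no filter (edgeR adjusted p = 0.0117), without islet replicate 4 or 6 (0.0414 and 0.0363) and without both islet libraries 2 and 4 (6.96e-05). All 3 had every islet library below every fat library, which held for 22.3% of all genes tested. Nr3c2 passed the filter through its fat libraries alone, and Esr2 had no count.

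Of 16 genes of glucocorticoid handling and response, 14 were tested, 8 fell and 1 rose, with a median of -2.15 (log2). Hif3a, which had no islet counts, and Pdk4 passed the filter through their fat libraries alone. Dusp1, a phosphatase that restrains MAP kinases, stood at 367, 466 and 302 CPM in islet and 3149, 2928 and 3426 CPM in fat (log2 -3.07 ± 0.32, SE, edgeR adjusted p = 0.000406). Klf9 and Pdk4, given above, also belong to this list, as does Per1. Zfp36, Nfkbia, Anxa1 and Hif3a fell too. Fkbp4, a cochaperone of the receptor that heat shock also induces, rose by 1.34 ± 0.31 (edgeR adjusted p = 0.0182), at 146, 98.3 and 65.7 CPM in islet and 36.1 to 45.5 CPM in fat. It no longer passed with fat replicate 2, 4 or 6 or islet replicate 2 left out (edgeR adjusted p = 0.102, 0.0761, 0.0816 and 0.0538), which left 0 genes of this list higher, nor without both islet libraries 2 and 4 (log2 0.61, edgeR adjusted p = 0.0549).

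Genes of this list differed among the islet libraries in both directions, and those given here were singled out after their values were seen. Tsc22d3 (GILZ) had islet levels of 150, 204 and 21.6 CPM (libraries 2, 4 and 6) and 429 to 540 CPM in fat, and Fkbp5, a feedback inhibitor of the receptor, had 159, 189 and 38.5 CPM and 292 to 405 CPM. Zbtb16 stood at 74.6, 45.3 and 6.74 CPM and 97.3 to 125 CPM, and Per1 at 163, 149 and 26.7 CPM and 576 to 676 CPM. Islet library 6 was the lowest of all 6 libraries for these 4 genes. Sgk1, a kinase that glucocorticoids induce, ran the other way at 91.3, 112 and 271 CPM in islet libraries and 65.9 to 77.6 CPM in fat and did not pass (edgeR adjusted p = 0.0824), and Anxa1, an annexin with anti-inflammatory action, stood at 10.3, 7.74 and 50.3 CPM in islet and 141 to 180 CPM in fat. Nfkbia and H6pd were likewise highest of the islet libraries in 6. Islet library 6 held 0.779% heat shock RNA where islet libraries 2 and 4 held 9.30% and 10.3%. The part of heat shock RNA in these differences was not tested. Tsc22d3, Fkbp5 and Zbtb16 did not pass (edgeR adjusted p = 0.0693, 0.0807 and 0.188) and passed without islet replicate 6 (0.00157, 0.00946 and 0.0400). Tsc22d3 also passed with the replicate number as a block (edgeR adjusted p = 0.0301) and without islet replicate 4 (0.0429).

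**Figure D5:**
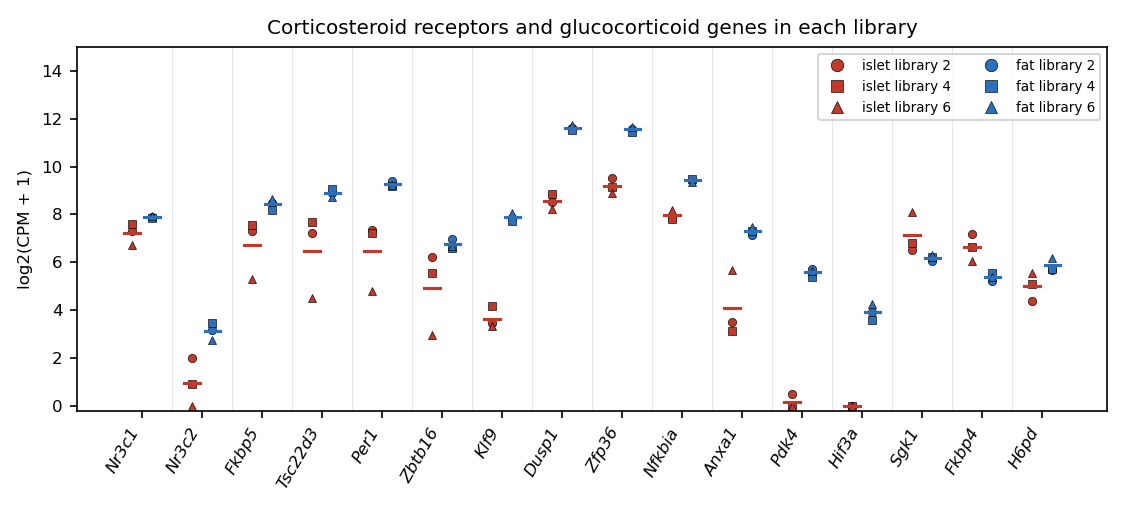
Levels of Nr3c1, Nr3c2 and 14 genes of glucocorticoid handling and response in each library, as log2(CPM + 1), islet in red and fat in blue, bars at the mean of 3 libraries. Islet library 6 (triangles) lies lowest for Fkbp5, Tsc22d3, Per1 and Zbtb16, and Dusp1 and Klf9 are lower in all islet libraries.

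Nr1h2 encodes liver X receptor beta, a sensor of oxysterols, and was the highest of the 41 per kb in islet. It stood at 83.7, 60.8 and 57.5 CPM across islet libraries 2, 4 and 6 and 59.7, 35.7 and 59.8 CPM across fat libraries 2, 4 and 6. The groups overlapped (log2 0.38 ± 0.29, SE, edgeR adjusted p = 0.412). Of 12 genes of oxysterol handling and response, 11 were tested, 4 rose and 2 fell, with a median of 0.56 (log2). Of the 2 that fell, Scd1 passed the filter through its fat libraries alone. Abcg1, a cholesterol exporter, stood at 337, 283 and 493 CPM in islet and 26.9, 24.1 and 49.2 CPM in fat and rose by 3.47 ± 0.38 (edgeR adjusted p = 0.000533). Ch25h, which makes an oxysterol, stood at 53.6, 35.0 and 31.5 CPM in islet and 4.16, 1.86 and 2.24 CPM in fat and rose by 3.84 ± 0.43 (edgeR adjusted p = 0.000584). Mylip, which marks the LDL receptor for breakdown, stood at 395, 194 and 434 CPM in islet and 61.3 to 90.2 CPM in fat and rose by 2.18 ± 0.35 (edgeR adjusted p = 0.00336). All 3 were higher in every islet library than in any fat library. Abca1, the other main exporter under liver X receptors, stood at 437, 407 and 927 CPM in islet and 707 to 823 CPM in fat and did not pass (edgeR adjusted p = 0.541). Pltp, a phospholipid transfer protein, at 18.9, 22.9 and 37.7 CPM in islet and 893, 1008 and 1540.0 CPM in fat, fell by 5.43 ± 0.42 and Scd1, a fatty acid desaturase of adipocytes, by 5.99 ± 0.78 (edgeR adjusted p = 0.000122 and 0.00124). Scd1 stood at 164, 204 and 40.7 CPM across fat libraries 2, 4 and 6, in the order of Adipoq, and the part of adipocyte RNA in it was not tested. Scd1 missed the threshold without both islet libraries 2 and 4 (edgeR adjusted p = 0.126). The bile acid receptor gene Nr1h4 had 8, 2 and 0 counts in islet libraries and 0, 2 and 0 in fat.

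Other orphan receptors, whose natural ligand is unknown or debated, were tested through Nr2c2, Nr2c1, Nr2f6, Nr6a1 and Esrra, and these did not pass the threshold. Nr2c2, the TR4 gene, stood at 45.4, 28.1 and 34.1 CPM in islet and 69.4, 55.7 and 64.5 CPM in fat without overlap (log2 -0.82 ± 0.26, SE, edgeR adjusted p = 0.0594). It passed with RLE or upper-quartile factors (edgeR adjusted p = 0.0461 and 0.0449), in DESeq2 and limma voom (0.0167 and 0.0474), without islet replicate 2 (edgeR 0.0432) and without both islet libraries 2 and 4 (0.00759), and 31.2% of its exonic length lies opposite to other genes, mostly Mrps25. Nr2c1 (TR2) stood at 8.87, 5.16 and 19.0 CPM in islet and 13.5 to 14.7 CPM in fat, and Nr2f6 at 11.1, 6.02 and 15.1 CPM in islet and 11.6 to 16.1 CPM in fat. Nr6a1 stood at 4.23, 2.01 and 5.79 CPM in islet and 2.12 to 7.09 CPM in fat. All 3 overlapped between the tissues and did not pass (edgeR adjusted p = 0.655, 0.541 and 0.965). For Nr2f6 54.4% of the exonic length lies opposite to Ocel1. Nr2f2, the COUP-TFII gene of stromal and endothelial cells, had 122, 37 and 6 counts in fat libraries 2, 4 and 6 (11.5, 4.91 and 0.706 CPM) and none in islet, at least 9.18-fold lower. It failed the filter. Its fat levels ran in the order of the endothelial gene Cdh5 (56.7, 24.4 and 8.47 CPM), but not of Emcn, also endothelial (4.82, 1.06 and 2.35 CPM). The pericyte gene Rgs5 (90.3, 32.6 and 9.29 CPM) and the collagen gene Col1a1 (57.8, 32.9 and 12.7 CPM) had that order too. The part of endothelial and other stromal RNA in the Nr2f2 difference was not tested. Esrra, an oestrogen-related receptor of mitochondrial genes, stood at 15.5, 27.2 and 3.23 CPM in islet and 8.98, 10.6 and 12.2 CPM in fat (log2 0.51 ± 0.64, edgeR adjusted p = 0.632). Like Rxrb and heat shock RNA, it was high in islet libraries 2 and 4 and lowest of the islet libraries in 6, and without islet libraries 2 and 4 its difference was -1.79 (edgeR adjusted p = 0.0136).

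The remaining members were at or near the limit of detection. Esrrg had 11 counts in islet library 2 and none elsewhere. That library also held the most endocrine RNA, and the part of such RNA in the Esrrg counts was not tested. Nr5a2 had 8 counts in fat library 2, Nr2f1 had 7 and 2 in fat libraries 2 and 4, and Rorb had 4 in islet library 2. Nr2e1, Nr1h5 and Nr1i3 had at most 2 counts in any library. Esr2, Esrrb, Nr0b1, Nr0b2, Nr1i2, Nr2e3, Nr5a1 and Ppara had none. A floor of 3 counts corresponds to 0.284 to 0.860 CPM in these libraries, and a count of 0 allows a level up to that floor. Such limits speak of counting error alone, because reads were not marked by molecular identifiers and need not be independent molecules.

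Few genes for the proteins that receptors recruit passed the threshold, where over all genes tested 10.5% fell and 8.97% rose. The median over all genes tested was 0.01 (log2). Counts of the other gene lists are to be read against the same values. Of 22 corepressor and coactivator genes, 21 were tested, 1 fell and 0 rose in edgeR (1 at an unadjusted p under 0.05, 0 in DESeq2 and 0 in limma voom), with a median of -0.18 (log2). The gene that fell was Ncoa1 (SRC-1), a coactivator, with islet levels of 58.1, 62.5 and 32.1 CPM and fat levels of 150, 107 and 137 CPM (log2 -1.37 ± 0.30, SE, edgeR adjusted p = 0.0142). It no longer passed once fat replicate 2 or 6 was left out (edgeR adjusted p = 0.0734 and 0.0598), which left 0 that fell. The corepressor gene Ncor1 had a difference of -0.06 ± 0.22 (edgeR adjusted p = 0.873). Leaving out islet replicate 4 or 6 gave 2 that fell, and leaving out islet libraries 2 and 4 together gave 3. Leaving out islet replicate 4 gave 1 that rose, and leaving out both gave 3.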

How the data were processed

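RNA of sorted macrophages from pancreatic islets and epididymal fat of 12-week-old mice was sequenced in 3 libraries per tissue, from 10 ng of total RNA with a stranded low-input kit, per the labels' protocols. The authors deposited counts of reads for each gene as whole numbers, with no normalisation. STAR, featureCounts, Subread 1.6.4 and GRCm38 are named per the submitters' processing notes, and the sources used here do not give the annotation or the strand setting. Gene identifiers were matched without version to GENCODE M21 (50376, or 99.56%), which gave coordinates, exon lengths and exon overlaps. Promoter windows came from RefSeq.

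Counts were filtered with filterByExpr, which left 12152 genes, scaled by TMM and tested by edgeR's quasi-likelihood test (edgeR 4.0.16, limma 3.58.1, R 4.3.3) without a block, with Benjamini-Hochberg adjustment over all genes tested and a threshold of 0.05. Log2 differences are islet minus fat with a prior count of 0.125. Scripts also used DESeq2 1.42.0, pandas 2.3.3, scipy 1.17.1 and matplotlib 3.10.9, and the fits were tested on simulated data. Total counts of 4089980 to 9235591 put the floor of 3 counts at 0.284 to 0.860 CPM.

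The same library number in both tissues was taken as the same animal, since the design text calls the samples autologous. Deviations from the tissue mean correlated across genes at 0.0493, 0.0517 and -0.0171 for the same numbers and at -0.144 to 0.104 for other numbers. Nothing says that libraries of 1 tissue came from separate animals rather than repeats, so p-values measure the spread between these libraries.

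Every member was counted. Members past the threshold, those among the 8 highest per kilobase in either tissue and those whose libraries did not overlap were given by library, and from each gene list the 3 genes of lowest adjusted p that rose and the 3 that fell. Other genes were named after their values were seen, and some genes are not reported by name here. The members and lists were chosen with earlier results of these data known, and the lists share Klf9, Pdk4 and Per1. The 15 alternatives were other size factors (RLE, upper quartile), DESeq2, limma voom, dropping the filter or setting it to 1 CPM throughout either tissue, the replicate block, each library left out in turn, islet libraries 2 and 4 left out together, and genes of other cell types left out.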

Additional observations from a re-analysis of the deposited data

How the results depend on the processing

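Of the 7 receptor genes that passed, Thrb, Rarg and Nr1d2 kept their direction and their side of the threshold in all 15 alternatives. The number that fell, 6, became 10 with DESeq2, 10 with limma voom, 11 with no filter and 12 without islet libraries 2 and 4, and ranged from 3 to 10 with 1 library left out. The number that rose, 1, became 2 with DESeq2, 3 with no filter, 2 with the replicate block and 2 without islet libraries 2 and 4, and ranged from 0 to 2 with 1 library left out. The cause was not tested, beyond the change in genes or samples each alternative makes. Under the replicate block, which pairs libraries of 1 number, 6 fell. Rxra lost the threshold, Rara and Ppard gained it, and no other receptor gene changed its call. Tsc22d3, of the glucocorticoid list, also gained it, and 6 rather than 7 genes of the PPAR response list fell. Direction reversed only for genes that had not passed: Esrra (-0.23 in limma voom, -0.20 to 0.99 with 1 library left out, negative without islet replicate 4, and -1.79 without islet libraries 2 and 4), Nr6a1 (0.0762 in limma voom, -0.42 to 0.52 with 1 library left out, positive without fat replicate 2 or islet replicate 4, and 0.37 without islet libraries 2 and 4), Nr2c1 (0.33) and Rxrb (-0.41), both without islet libraries 2 and 4. That last fit has 1 islet library, which takes its spread from the fat libraries, and moved the median of all genes by -0.11 (log2). Counts under 3 per library limit what could be detected.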
